A study of Mus musculus with 8 samples.

Results

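Among the 24411 gene symbols counted in the hearts of YY1 knockout and control mice, 10 encode a connected set of regulators of energy metabolism. They are the PGC-1 coactivators Ppargc1a, Ppargc1b and Pprc1, the muscle regulator Perm1, the oestrogen-related receptors Esrra, Esrrb and Esrrg, the receptors Ppara and Ppard, and their partner Rxra. They were taken by symbol from the count tables, but the set was chosen with earlier results of these data known. All 10 were among the 13506 genes with enough reads to be tested, with 194 to 8991 reads per library.

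The PGC-1 coactivators do not bind DNA themselves but dock on transcription factors and recruit the enzymes that open chromatin and start transcription. In heart muscle their main partners are the oestrogen-related receptors (ERRs), orphan nuclear receptors that act on genes of the respiratory chain and the citric acid cycle, and the peroxisome proliferator-activated receptors (PPARs), fatty acid sensors that act on genes of fatty acid uptake and oxidation. PPARs bind DNA as pairs with a retinoid X receptor. In failing and overloaded hearts this system is known for its loss along with that of fatty acid oxidation.

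Polyadenylated RNA was sequenced from 8 hearts of C57BL/6 mice collected 1 week after a surgical narrowing of the aorta, transverse aortic constriction, which loads the left ventricle with pressure. The control group held 4 mice with MerCreMer, a Cre recombinase fused to mutated oestrogen receptor domains, and the YY1 KO group held 4 mice lacking Yin-Yang 1 (YY1), a zinc finger transcription factor, in cardiac cells. Both groups were operated, so every comparison is between genotypes after this surgery. The question is how far the regulators' transcripts differed between genotypes there. The promoter behind MerCreMer, the Cre that deleted YY1, any drug that activated it and the mice's age were not among the details given here.

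Each library held 23869112 to 23966753 reads, of which 14582605 to 16000455 were assigned to genes. Yy1 itself ran from 33.8 to 37.2 CPM (counts per 1000000 gene reads) in the controls and from 18.0 to 23.8 CPM in the YY1 KO hearts, 58.3% of the control mean. The labels call all mice male, yet 4 libraries, controls 1 and 4 and YY1 KO 1 and 4, held 138 to 219 CPM of Xist and at most 0.134 CPM of 4 Y-linked genes, so each genotype held 2 Xist-positive hearts. Reads assigned to Esr1, the receptor whose domain MerCreMer carries, ranged from 24775 to 52403 in the controls and from 42 to 15093 in the YY1 KO hearts. Transgene reads can fall on that gene, and a difference in the transgene cannot be told apart from the deletion of YY1. Nppa, a transcript that rises with load, ranged from 159 to 4283 CPM in the controls and from 2989 to 4034 CPM in the YY1 KO hearts. The lowest heart was control 1. Whether the groups were loaded equally was not tested, and unequal load cannot be told apart from genotype here.

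Of the 10 regulators, 7 fell in the YY1 KO hearts and 0 rose, by edgeR's quasi-likelihood test at a Benjamini-Hochberg adjusted p under 0.05. Of all genes tested, 17.3% were lower and 21.6% were higher by the same rule. The 7 were all 3 PGC-1 coactivators, Perm1, Rxra, Esrrg and Ppard, whereas Esrra, Esrrb and Ppara did not pass. The median log2 fold change (YY1 KO minus control) was -0.75 over the regulators and 0.01 over all genes. In 5 of the 10 (Ppargc1b, Pprc1, Perm1, Ppard and Rxra) every YY1 KO heart lay below every control heart, whereas groups kept apart in either direction in 38.3% of all genes tested.

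**Figure D1:**
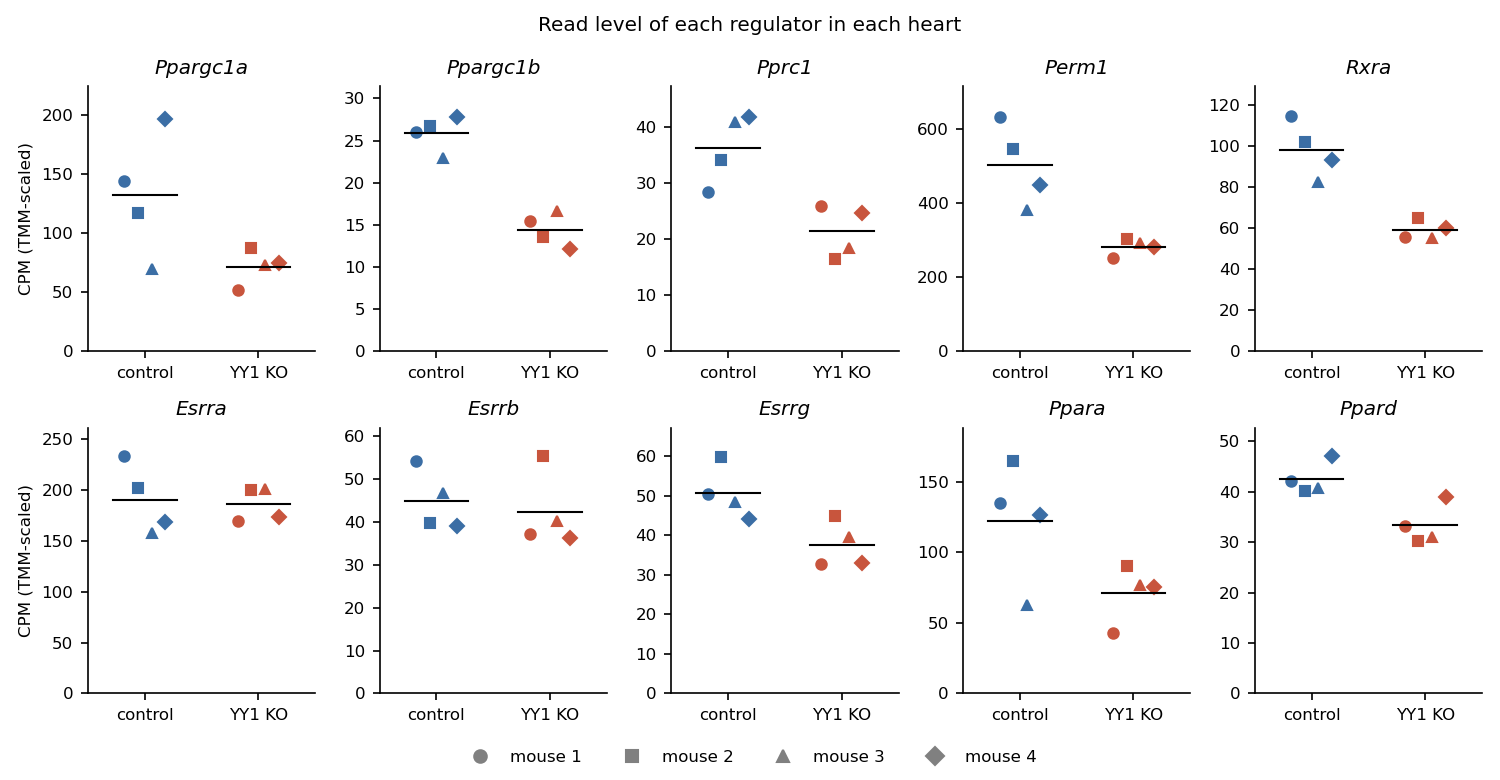
Level of each regulator in each heart, in CPM after TMM scaling on the vertical axis, which starts at 0 and differs between panels, for 4 control and 4 YY1 KO mice. Symbols mark the mouse number and lines the group means, and the groups lie apart for Ppargc1b, Pprc1, Perm1, Rxra and Ppard and overlap for the others.

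The sequences upstream of the RefSeq starts (GRCm38.p6) of 4 regulators are shown because they span the outcomes: Perm1 and Pprc1 lay apart between genotypes, Ppargc1a passed the test with overlapping groups, and Esrra did not pass. They are written 5′ to 3′ on the gene's strand and leave out any base of an annotated exon of the gene. Capitals mark matches on either strand to ANATGGC (a YY1 core), AGGTCA (the core repeat of nuclear receptor sites, contained in the longer ERR motif TNAAGGTCA) or GCGCANGCG (an NRF1 motif).
Perm1, chr4:156215677-156215867, plus strand: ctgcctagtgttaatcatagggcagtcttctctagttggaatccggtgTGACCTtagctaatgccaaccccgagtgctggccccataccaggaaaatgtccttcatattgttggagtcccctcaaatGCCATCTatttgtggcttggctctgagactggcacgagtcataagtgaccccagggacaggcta
Pprc1, chr19:46056289-46056538, plus strand: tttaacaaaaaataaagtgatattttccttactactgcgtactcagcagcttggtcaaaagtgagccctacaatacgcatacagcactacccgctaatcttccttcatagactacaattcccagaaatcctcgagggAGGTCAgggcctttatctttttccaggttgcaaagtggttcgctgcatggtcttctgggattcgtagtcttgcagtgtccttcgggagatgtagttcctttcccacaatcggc
Ppargc1a, chr5:51567727-51567975, minus strand: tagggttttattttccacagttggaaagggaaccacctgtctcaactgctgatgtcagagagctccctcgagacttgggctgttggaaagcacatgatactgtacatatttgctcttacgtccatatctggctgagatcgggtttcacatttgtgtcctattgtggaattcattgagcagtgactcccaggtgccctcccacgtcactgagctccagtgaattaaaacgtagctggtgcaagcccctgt
Esrra, chr19:6921814-6922058, minus strand: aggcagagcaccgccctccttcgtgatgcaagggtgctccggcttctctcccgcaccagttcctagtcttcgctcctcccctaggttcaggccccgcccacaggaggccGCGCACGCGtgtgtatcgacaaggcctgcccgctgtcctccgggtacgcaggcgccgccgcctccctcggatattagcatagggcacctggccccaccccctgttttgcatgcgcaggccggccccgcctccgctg

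In the Perm1 sequence the first capitals, TGACCT, are the receptor core read on the minus strand, at positions -202 to -197 from the start site. The second, GCCATCT, are the YY1 core read on the minus strand, at -123 to -117. Pprc1 held a receptor core at -113 to -108, Esrra held an NRF1 match at -141 to -133, and Ppargc1a held no match in this window. Over 14 start sites of 9 regulators, each searched over 250 bases, the YY1 core was found upstream of Perm1 alone. The ERR motif was found at 0 of the 14. Ppargc1b was not searched. Receptor cores also lay upstream of the second start of Rxra (-87 to -82 and -48 to -43), and overlapping NRF1 matches upstream of Ppara (-31 to -22 in all). Among 32841 promoters of 27018 genes, 11.5% held the YY1 core, 14.03% the receptor core, 5.16% the NRF1 motif and 1.14% the ERR motif. A match gives letters in a window and shows neither binding nor its absence.

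Ppargc1a (chr5:51454250-51567726, minus strand), the coactivator PGC-1α, was at 144, 118, 70.0 and 197 CPM in controls 1 to 4 and at 51.7, 87.8, 72.9 and 74.8 CPM in YY1 KO hearts 1 to 4. Control 4 stood highest, and control 3 lay below 3 of the 4 YY1 KO hearts, so the groups overlapped. The mean was 132 ± 53.0 CPM (SD, n = 4) in controls and 71.8 ± 14.95 CPM (SD, n = 4) in YY1 KO, 54.3% of control. The log2 fold change of -0.88 ± 0.29 (SE) passed the test (edgeR adjusted p = 0.0367). The call did not hold without control 1, 2 or 4 or without YY1 KO 1, 3 or 4, with edgeR adjusted p from 0.0568 to 0.0931 in these 6 fits, while the sign was negative in all 8 fits that left out 1 library. An exact permutation test of the 8 log2 CPM values gave p = 0.114.

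Ppargc1b (chr18:61298136-61400431, minus strand), which encodes the closely related PGC-1β, fell with little spread. Its levels were 26.0, 26.8, 22.9 and 27.8 CPM in controls 1 to 4 and 15.5, 13.5, 16.6 and 12.1 CPM in YY1 KO hearts 1 to 4. The highest YY1 KO heart lay below the lowest control. The means of 25.9 ± 2.10 and 14.4 ± 2.02 CPM (SD, n = 4 each) gave a log2 fold change of -0.84 ± 0.12 (edgeR adjusted p = 0.00107), the smallest p of the 10, and the call held with each library left out in turn. The exact permutation p was 0.0286, the smallest that 4 against 4 hearts can give.

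Pprc1 (chr19:46044886-46072915, plus strand) encodes PRC, the PGC-1-related coactivator, known for its induction by growth signals. It was at 28.5, 34.2, 40.9 and 41.8 CPM in controls 1 to 4 and at 25.9, 16.6, 18.5 and 24.7 CPM in YY1 KO hearts 1 to 4. Control 1 and YY1 KO 1 lay closest to each other, with no overlap between the groups. The log2 fold change was -0.76 ± 0.18 (edgeR adjusted p = 0.00894), and all 8 fits that left out 1 library kept the call. Its exons share 177 bases with Ldb1 on the opposite strand, and counts from the sense strand alone gave a log2 fold change of -0.76.

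The 3 coactivators summed per kb of exon, which puts genes of different length on 1 scale, came to 32.9, 29.99, 22.9 and 43.5 CPM per kb in controls 1 to 4 and to 15.8, 19.3, 18.2 and 18.3 CPM per kb in YY1 KO hearts 1 to 4. This total did not overlap between genotypes, and its YY1 KO mean was 55.4% of the control mean. The mix of the family stayed close: Ppargc1a supplied 60.3 ± 10.03% of it in controls and 60.3 ± 8.02% in YY1 KO (SD, n = 4 each). Ppargc1b supplied 20.8 ± 3.88% and 20.4 ± 3.93% (SD, n = 4 each).

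Perm1 (chr4:156215868-156221307, plus strand) is a striated muscle gene that is induced by PGC-1 coactivators and ERRs and in turn promotes oxidative gene expression. It was at 633, 547, 382 and 451 CPM in controls 1 to 4 and at 254, 303, 294 and 283 CPM in YY1 KO hearts 1 to 4. All 4 YY1 KO hearts lay within a narrow band below the controls, which spread more widely. The means were 503 ± 110 CPM and 283 ± 21.6 CPM (SD, n = 4 each), a log2 fold change of -0.83 ± 0.16 (edgeR adjusted p = 0.00371). Each of the 8 fits that left out 1 library kept the call, with log2 fold changes from -0.94 to -0.71. The YY1 KO mean of Perm1 was 56.3% of control. It was 54.3% for Ppargc1a, 55.8% for Ppargc1b, 58.9% for Pprc1, 58.4% for Ppara and 60.0% for Rxra. For Esrrg, Ppard, Esrrb and Esrra it was 74.1%, 78.5%, 94.0% and 97.6%.

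Esrra (chr19:6910977-6921813, minus strand), which encodes ERRα, the main adult ERR of oxidative tissues, showed no detectable difference. Its levels were 234, 203, 158 and 168 CPM in controls 1 to 4 and 170, 200, 201 and 173 CPM in YY1 KO hearts 1 to 4. The 4 YY1 KO values all lay inside the range of the controls. Its log2 fold change of -0.03 ± 0.14 did not pass (edgeR adjusted p = 0.856), and its sign turned with library size alone as the scaling (0.03). Esrra shares 73 exon bases with Trmt112 on the opposite strand, and sense-strand counts gave -0.03.

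Esrrb (chr12:86361117-86521628, plus strand), which encodes ERRβ, was at 54.3, 39.7, 46.8 and 39.1 CPM in controls 1 to 4 and at 37.3, 55.3, 40.1 and 36.2 CPM in YY1 KO hearts 1 to 4. YY1 KO 2 was the highest of all 8 hearts and the groups overlapped through most of their range. With a log2 fold change of -0.09 ± 0.16 it did not pass (edgeR adjusted p = 0.680). The gene lies on the chromosome of Yy1, 22.3 Mb away.

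Esrrg (chr1:187608791-188214885, plus strand) encodes ERRγ, which in the newborn heart is known for the switch to oxidative metabolism. It was at 50.5, 59.7, 48.5 and 44.1 CPM in controls 1 to 4 and at 32.8, 44.8, 39.6 and 32.9 CPM in YY1 KO hearts 1 to 4. The groups met at 1 point, where YY1 KO 2 slightly exceeded control 4. Esrrg fell by 0.43 ± 0.13 on the log2 scale (edgeR adjusted p = 0.0283), though the call did not hold without control 2 or without YY1 KO 1, 3 or 4 (adjusted p from 0.0556 to 0.0751 in these edgeR fits). Esrrg was thus the single ERR to pass, but a difference between its response and that of Esrra or Esrrb was not tested.

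Per kb of exon, Esrra made up most of the ERR transcripts, with 73.4 ± 2.48% in controls and 76.6 ± 2.06% in YY1 KO (SD, n = 4 each). The share of Esrrg was 13.9 ± 1.77% in controls, from 11.6 to 15.4%, and 10.9 ± 0.559% in YY1 KO, from 10.4 to 11.7% (SD, n = 4 each). These ranges overlapped slightly. The summed ERR level was 51.6 to 70.4 CPM per kb in controls and 50.2 to 61.9 CPM per kb in YY1 KO, whose mean was 93.9% of control.

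Ppara (chr15:85734983-85802819, plus strand) encodes PPARα, the fatty acid receptor most tied to cardiac fatty acid oxidation. It was at 135, 165, 62.8 and 127 CPM in controls 1 to 4 and at 42.7, 90.3, 77.1 and 75.6 CPM in YY1 KO hearts 1 to 4. As for Ppargc1a, control 3 was far below the other controls and inside the YY1 KO range, and YY1 KO 1 was the lowest of all. The means were 122 ± 43.0 and 71.5 ± 20.3 CPM (SD, n = 4 each), and the log2 fold change of -0.78 ± 0.30 did not pass (edgeR adjusted p = 0.0691). Without control 3 it was -0.998 and passed (edgeR adjusted p = 0.0117), and DESeq2 on all 8 libraries passed it at an adjusted p of 0.0258.

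Ppard (chr17:28232700-28301474, plus strand) encodes PPARδ, a more widely expressed receptor of the same family. It was at 42.2, 40.2, 40.7 and 47.0 CPM in controls 1 to 4 and at 33.1, 30.3, 31.1 and 39.0 CPM in YY1 KO hearts 1 to 4. The groups lay just apart, with YY1 KO 4 close below control 2. Ppard fell by 0.35 ± 0.10 on the log2 scale (edgeR adjusted p = 0.0238), the smallest difference among the 7 that passed. The call did not hold with library size alone as the scaling (adjusted p = 0.0842 in edgeR), nor without control 4 or YY1 KO 1, 2 or 3.

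Rxra (chr2:27676440-27762957, plus strand) encodes RXRα, the shared partner of the PPARs and of several other nuclear receptors. It was at 115, 102, 82.7 and 93.4 CPM in controls 1 to 4 and at 55.6, 64.8, 55.0 and 60.3 CPM in YY1 KO hearts 1 to 4. All YY1 KO hearts lay well below all controls. The means of 98.2 ± 13.5 and 58.9 ± 4.56 CPM (SD, n = 4 each) gave a log2 fold change of -0.74 ± 0.11 (edgeR adjusted p = 0.00137), and each of the 8 fits that left out 1 library kept the call.

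Levels of different genes were set side by side per kb of exon. Averaged over the hearts of both genotypes, Perm1 stood above 97.0% of tested genes. In controls Perm1 was highest at 129 ± 28.2 CPM per kb (SD, n = 4), followed by Esrra at 43.5 ± 7.84 and Ppara at 31.9 ± 11.2 CPM per kb. Ppargc1a at 20.1 ± 8.05 and Rxra at 18.0 ± 2.47 CPM per kb came next. Esrra, Ppara, Ppargc1a and Rxra each overlapped the next in their ranges over hearts, while Perm1 lay above Esrra and Rxra above Esrrg in every control. The remaining levels were 8.16 ± 1.05 CPM per kb for Esrrg, 7.44 ± 1.18 for Esrrb, 6.49 ± 0.527 for Ppargc1b, 5.78 ± 0.994 for Pprc1 and 5.66 ± 0.412 for Ppard. Neighbours among these 5 overlapped in their ranges over hearts.

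In YY1 KO hearts Perm1 (72.7 ± 5.53 CPM per kb) and Esrra (42.4 ± 3.81) still led (SD, n = 4 each). Ppara (18.6 ± 5.28), Ppargc1a (10.9 ± 2.27) and Rxra (10.8 ± 0.835) followed in CPM per kb. The summed PPAR level ran from 21.8 to 48.4 CPM per kb in controls and from 15.5 to 27.6 CPM per kb in YY1 KO, with a YY1 KO mean of 61.4% of control. Set beside the coactivator total at 55.4% and the ERR total at 93.9%, the level of the ERRs was the one that lay close to control.

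**Figure D2:**
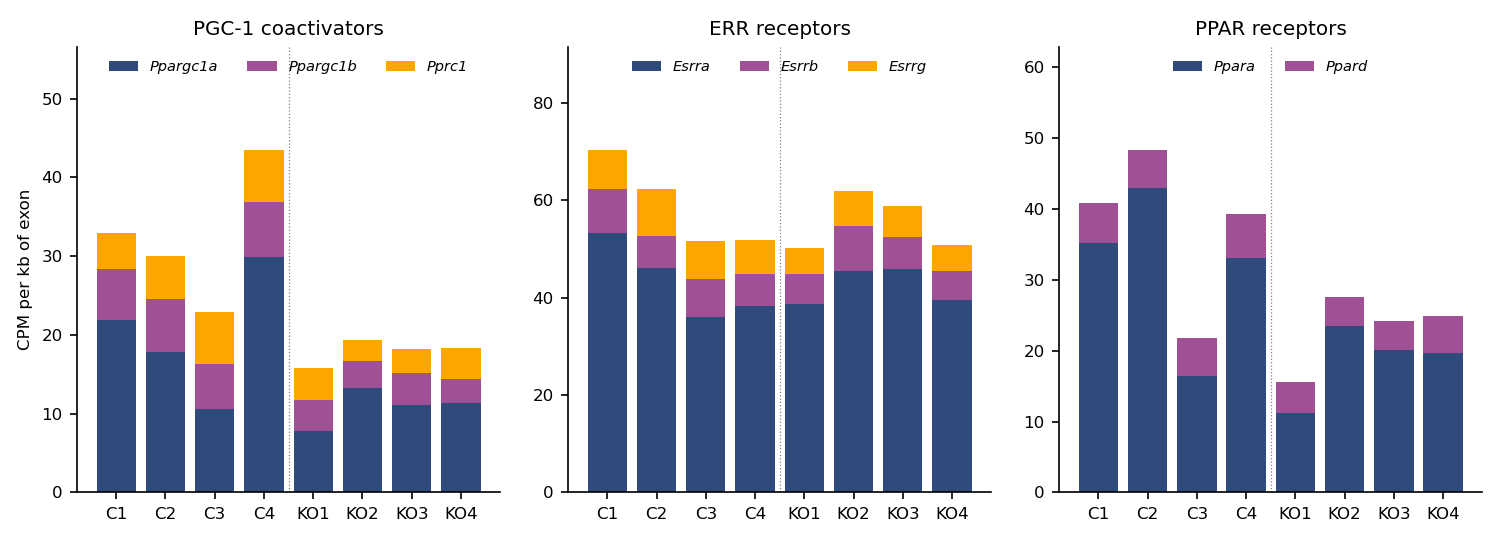
Summed levels of the PGC-1 coactivators, ERRs and PPARs in each heart, in CPM per kb of exon, stacked by gene, for control mice (C1 to C4) and YY1 KO mice (KO1 to KO4). Every YY1 KO coactivator total, at most 19.3, lies below every control total, at least 22.9, while the ERR and PPAR totals overlap between genotypes.

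The hearts of 1 genotype also differed among themselves, and several regulators did so together. Control 3 was the lowest control for 6 of the 10 (Ppargc1a, Ppargc1b, Esrra, Ppara, Rxra and Perm1). YY1 KO 1 was the lowest of its group for 5 (Ppargc1a, Esrra, Esrrg, Ppara and Perm1), and YY1 KO 2 was the highest for 6 (Ppargc1a, Esrrb, Esrrg, Ppara, Rxra and Perm1). In control 3 the log2 deviation from the mean of the controls was -0.82 for Ppargc1a and -0.88 for Ppara, whereas it was -0.06 for Ppard. Pprc1 ran the other way in YY1 KO 1, where it was the highest of its group.

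**Figure D3:**
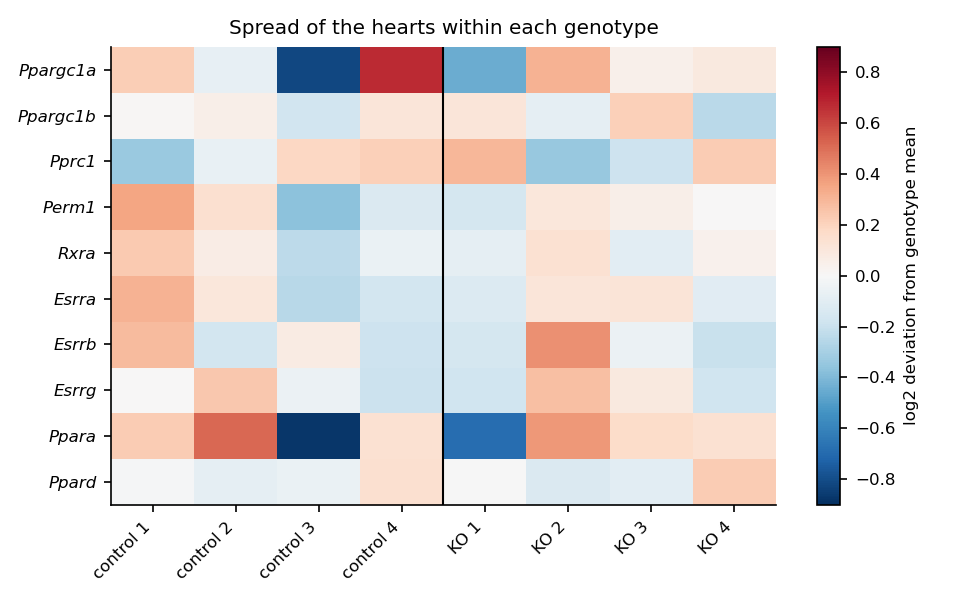
Deviation of each regulator in each heart from the mean of its own genotype, as log2 CPM, with red above and blue below that mean. Control 3 and YY1 KO 1 are lowest for Ppargc1a and Ppara, with deviations of -0.82 and -0.88 in control 3.

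The same hearts stood apart in cell type markers. The summed level of 12 cardiomyocyte markers was 93840 to 116776 CPM in controls and 70967 to 102292 CPM in YY1 KO, and it was lowest in control 3 and YY1 KO 1 within their groups. Of these 12 markers, 3 fell (Actc1, Myl2 and Myl3) and 2 rose (Myh7 and Mybpc3). These shares, 25% and 16.7%, were near the 17.3% lower and 21.6% higher of all genes. The cardiomyocyte markers were abundant in every library. The 8 fibroblast markers summed to 1289 to 4540 CPM in controls and to 1874 to 6003 CPM in YY1 KO, with 1 of 8 higher (12.5%) and 0 lower. The 8 endothelial markers summed to 1391 to 1856 CPM in controls and 1053 to 1253 CPM in YY1 KO, with 5 lower (62.5%) and 1 higher (12.5%). The 8 pericyte and smooth muscle markers summed to 1121 to 1354 and 770 to 950 CPM, with 3 lower (37.5%) and 0 higher. The 10 macrophage and leukocyte markers, of which 8 could be tested, summed to 284 to 495 and 340 to 468 CPM with 0 changed, and the 7 adipocyte markers to at most 2.37 CPM.

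Atrial muscle markers set YY1 KO 4 apart. Myl7 was at 11.5 CPM and Sln at 3.99 CPM in that heart, against at most 0.195 and 0.142 CPM in the other 7, and Bmp10 was listed at 0 in all 8. Myl4, 1 of the 2 atrial markers of 5 that could be tested, rose (log2 fold change 2.48 ± 0.61, edgeR adjusted p = 0.012), from 1.20 to 2.21 CPM in controls to 4.51 to 5.16 CPM in YY1 KO 1 to 3 and 24.1 CPM in YY1 KO 4. The other, Nppa, did not pass, and the 5 markers, most of whose reads were from Nppa, summed to 160.4 to 4286 CPM in controls and 2994 to 4038 CPM in YY1 KO. Of the 5 erythroid markers Hba-a1, Hba-a2, Hbb-bs and Hbb-bt were listed at 0, and Alas2 was at 15.6 to 32.7 CPM in controls, at 89.6 and 81.8 CPM in YY1 KO 2 and 3 and at 19.9 and 15.6 CPM in YY1 KO 1 and 4, a difference that did not pass. Without YY1 KO 4, 5 regulators were lower (Ppargc1b, Pprc1, Perm1, Ppard and Rxra), beside 17.1% of all genes.

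In bulk tissue fewer cells of a type and less RNA per cell cannot be told apart, and the part of the cell markers in the regulators' differences was not tested. With control 3 and YY1 KO 1 both left out, a choice made after their values were seen, 6 of the 10 regulators were lower, beside 13.3% of all genes in that fit. Ppara then passed (edgeR adjusted p = 0.00674), and Esrrg (0.0851) and Ppard (0.0588) did not. Ppargc1a passed there with a log2 fold change of -0.99 (edgeR adjusted p = 0.00999).

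Because the hearts split by Xist, the difference between genotypes was also taken within each class, 2 against 2. By sign alone, 10 of 10 regulators had a negative difference among the Xist-positive hearts, beside 47.9% of all genes, and 8 of 10 among the Y-positive hearts, beside 50.9%, with Esrra and Esrrb the exceptions. By the edgeR test at an adjusted p under 0.05, 0 regulators and 0% of all genes were lower among Xist-positive hearts, while 3451 genes had an unadjusted p under 0.05. Among Y-positive hearts 3 regulators were lower, beside 11.8% of all genes. Ppargc1a differed by -1.44 on the log2 scale among Xist-positive hearts and by -0.18 among Y-positive hearts, and Ppara by -1.20 and -0.29. Pprc1 had the opposite order, with -0.45 and -1.09. The interaction of genotype and class did not pass for any of the 10 (lowest edgeR adjusted p = 0.812). Unadjusted, its edgeR p was 0.0240 for Ppargc1a, 0.0622 for Pprc1 and from 0.147 to 0.619 for the others. With 2 hearts per genotype and class, a difference between classes is not excluded. Perm1 (-0.995 and -0.62), Rxra (-0.84 and -0.62) and Ppargc1b (-0.97 and -0.72) were closer between classes.

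**Figure D4:**
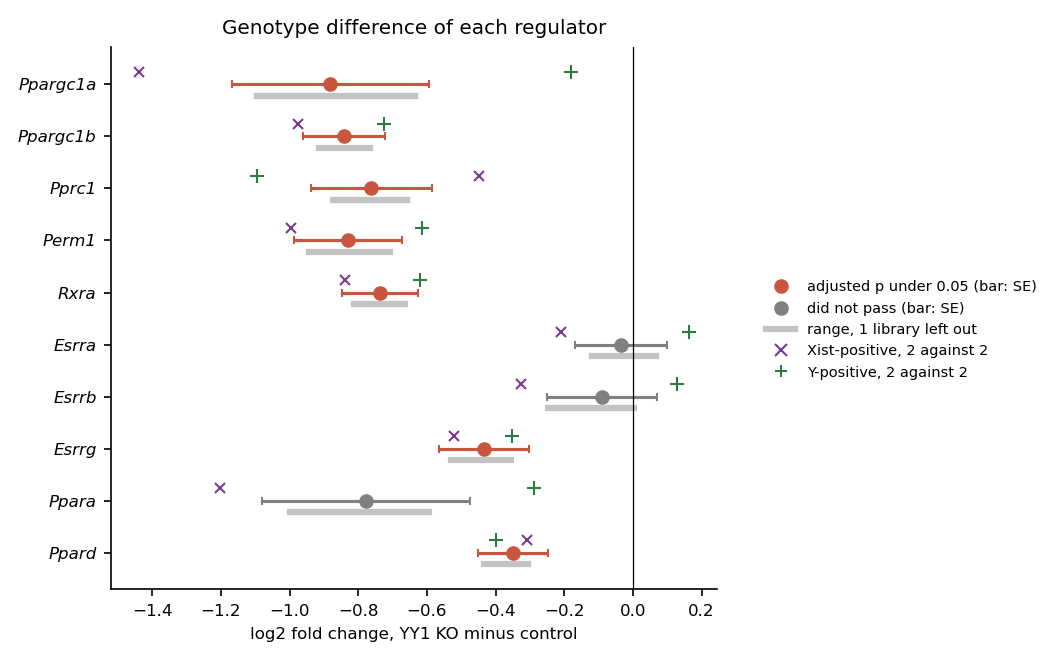
Log2 fold change of each regulator, YY1 KO minus control (4 against 4 hearts), coloured red where the adjusted p was under 0.05. Bars give a standard error derived from the edgeR F statistic. Grey bands give the range when 1 library is left out, and crosses and plus signs the differences of mean log2 CPM within Xist-positive and Y-positive hearts (2 against 2), which lie far apart for Ppargc1a (-1.44 and -0.18).

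For the 4 regulators with the smallest p, the tested genes with the nearest profile over the 8 hearts were found. Distance was the root mean square difference of centred log2 CPM, ranked among 12792 genes. Symbols of predicted genes and clones (Gm with a number, ending in Rik or starting with a digit) were left out. Since the 8 hearts span both genotypes, nearness includes the size of the genotype difference. For Perm1 the nearest were Nudt7 at a distance of 0.05, Nhsl1 at 0.07 and Epm2a at 0.07, against a median of 0.54 over these 12792 genes. For Rxra they were Syngr2, Mrpl23 and Bmi1, each at 0.06. Ppargc1b had Zfp961 at 0.10, with Dolpp1 and Cfp at 0.14, and Pprc1 had Kcnmb1 at 0.06, with Tbc1d1 and Nr2f1 at 0.11. Nudt7 encodes a peroxisomal coenzyme A hydrolase and Mrpl23 a protein of the mitochondrial ribosome. Functions of the other neighbours are not given here, and a function shared among the neighbours was not tested.

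Of 30 coregulators and upstream factors of PGC-1, 9 fell (30% of the list, beside 17.3% of all genes) and 2 rose (6.67%, beside 21.6%), with a median log2 fold change of -0.15. Lpin1, which encodes lipin 1, a phosphatidate phosphatase and coactivator of PPARα, fell from 250.03 ± 31.0 to 74.3 ± 27.1 CPM (SD, n = 4 each), a log2 fold change of -1.75 ± 0.23. The steroid receptor coactivators Ncoa1 and Ncoa2 fell too (-0.84 ± 0.12 and -0.61 ± 0.10), as did the Mediator kinase module subunit Med13 (-0.56 ± 0.09). Coactivators and corepressors were both among those that fell, since the corepressor gene Ncor1, named after its values were seen, fell too (-0.52 ± 0.09, edgeR adjusted p = 0.00215). Also named after their values were seen, the 2 that rose were Hdac3, a histone deacetylase of corepressor complexes (0.39 ± 0.10), and Zfp746, which encodes the Ppargc1a repressor PARIS (0.49 ± 0.10). The largest edgeR adjusted p among these 7 was 0.0153.

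Of 27 other nuclear receptors, 5 fell and 4 rose, with a median of -0.18. These shares, 18.5% and 14.8%, were near or below the 17.3% and 21.6% of all genes, so the counts are not a result about this list. Rxrg, which encodes a further RXR partner of the PPARs, fell from 70.6 ± 18.4 to 30.5 ± 8.80 CPM (SD, n = 4 each), a log2 fold change of -1.21 ± 0.25. Nr4a1, an early response orphan receptor, fell by 1.48 ± 0.28, and the glucocorticoid receptor gene Nr3c1 fell by 0.61 ± 0.10. Nr1h3, which encodes the oxysterol receptor LXRα, rose by 1.06 ± 0.17 on the log2 scale, from 15.01 ± 2.80 to 31.2 ± 5.79 CPM (SD, n = 4 each). These 4 had edgeR adjusted p from 0.00178 to 0.00565. Outside the rule that named genes, the others that passed were Nr4a3 and Nr2f1, which fell, and Nr1h2, Rora and Nr2c1, which rose. Pparg, the PPAR of fat cells, was at 14.5 ± 1.69 and 12.1 ± 2.73 CPM (SD, n = 4 each) and did not pass.

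Of 8 nuclear respiratory factors and genes of mitochondrial transcription, which PGC-1 coactivators act through, 1 fell and 0 rose. These shares, 12.5% and 0%, were below the 17.3% and 21.6% of all genes, so the counts are not a result about this list. The 1 that fell was Tfb2m, a mitochondrial transcription factor, which fell by 0.56 ± 0.14 on the log2 scale (edgeR adjusted p = 0.0137). The mitochondrial RNA polymerase gene Polrmt (-0.39 ± 0.14), Gabpb2 (-0.26 ± 0.13) and Tfam (-0.17 ± 0.10) had negative log2 fold changes that did not pass (edgeR adjusted p = 0.0555, 0.130 and 0.221). The median over the 8 was -0.15.

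Of 35 genes listed as PPAR targets, 32 could be tested, of which 15 fell and 1 rose, with a median of -0.77. Cpt2, a carnitine palmitoyltransferase of the inner mitochondrial membrane, fell from 227 ± 60.5 to 83.8 ± 12.3 CPM (SD, n = 4 each), a log2 fold change of -1.44 ± 0.19. The log2 fold change was -1.40 ± 0.22 for Acsl1, the acyl-CoA synthetase that primes fatty acids for use, -1.44 ± 0.24 for Decr1, an enzyme for unsaturated fatty acids, and -2.40 ± 0.42 for the lipid droplet protein gene Plin5, and all 3 passed. The 1 that rose was Cidea, another lipid droplet protein gene (0.79 ± 0.21). Pdk4, the kinase that holds back glucose oxidation, named after its values were seen, did not pass (-1.002 ± 0.38, edgeR adjusted p = 0.0651).

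Of 32 genes listed as targets of ERRs and PGC-1, 19 fell and 1 rose, with a median of -0.53. Fndc5, the precursor of irisin, fell from 387 ± 76.6 to 78.1 ± 32.2 CPM (SD, n = 4 each), a log2 fold change of -2.31 ± 0.29. The log2 fold change was -1.32 ± 0.17 for Ckmt2, the mitochondrial creatine kinase of muscle, -1.09 ± 0.16 for Uqcrc1, a core subunit of respiratory complex III, and -1.11 ± 0.16 for Prdx3, a mitochondrial peroxiredoxin, and all 3 passed. The 1 that rose was the glycolytic enzyme gene Aldoa (0.48 ± 0.13). In all, 59.4% of the ERR and PGC-1 targets and 46.9% of the tested PPAR targets were lower, beside 17.3% of all genes. Like the other lists, both were chosen with earlier results of these data known. These shares are therefore a description and not an independent test. With control 3 and YY1 KO 1 left out, 18 of the ERR and PGC-1 targets and 15 of the PPAR targets were lower, beside 13.3% of all genes. Among Y-positive hearts 8 of each list were lower, beside 11.8% of all genes, and among Xist-positive hearts 0 of either list and 0% of all genes. With the mouse number as a block 11 of the ERR and PGC-1 targets were lower.

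**Figure D5:**
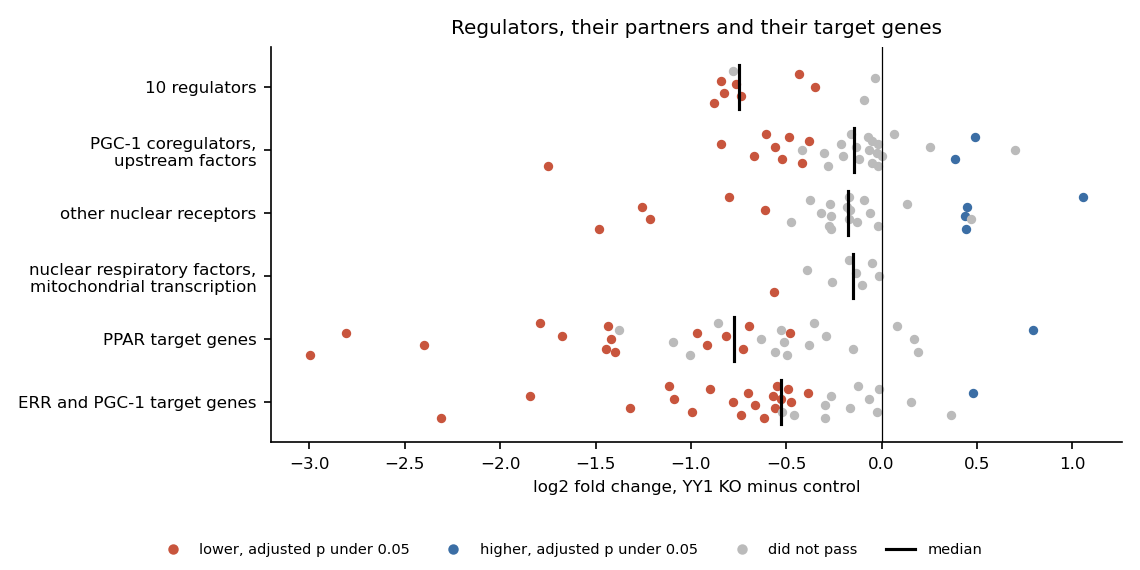
Log2 fold change (YY1 KO minus control) of each tested gene among the 10 regulators and 5 lists of partners and targets, with black bars at the medians, red and blue for genes with an edgeR adjusted p under 0.05, and Esr1 left off because transgene reads can fall on it. The medians are -0.75 for the regulators, -0.77 for PPAR targets and -0.53 for ERR and PGC-1 targets, and lie between -0.18 and -0.15 for the other lists.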

How the data were processed

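Raw read counts per gene symbol, 1 table per heart, were deposited by the authors, who trimmed reads with Trimmomatic and aligned them with STAR to mm10 per the submitters' processing notes. Their versions, settings and annotation were not given in the sources used here. Counts irrespective of strand were used. Reads not assigned to a gene (33.0 to 38.9%) were left out. Groups came from the labels, which number separate mice, and libraries of 1 group differed by more than sampling noise (chi-square 14.6 to 96.7 times its degrees of freedom).

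Genes passing filterByExpr (minimum count 10, or 0.648 CPM, in 4 libraries) were tested with edgeR 4.0.16 in R 4.3.3 (TMM scaling, robust quasi-likelihood F test, genotype as the single term, Benjamini-Hochberg over all genes). The test was also tested on simulated data. Standard errors of log2 fold changes were derived as the absolute log2 fold change divided by the square root of the edgeR F statistic. Levels are TMM-scaled CPM, except unscaled CPM for Xist and the Y-linked genes. Exon lengths and positions came from GENCODE M21 (GRCm38), where 24002 of 24411 symbols matched. Protein sequences were not used here. The members and lists were chosen with earlier results of these data known. The text names all members, up to 4 genes of smallest p per list, and the 3 nearest profiles for the 4 members of smallest p. Exceptions named for another reason are marked or are single genes of a count. Alternatives were RLE, upper-quartile and library-size scaling, DESeq2 1.42.0, voom of limma 3.58.1, other count filters, stranded counts, a replicate block, a term for Xist class, each class alone, and each library left out. Figures were drawn in Python 3.11.15 with matplotlib 3.10.9.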

Additional observations from a re-analysis of the deposited data

How the results depend on the processing

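Ppargc1b and Rxra lost their calls in 1 of 21 alternatives each, the Xist-positive hearts alone, and so did Pprc1, while Perm1 lost its call in 2, Esrrg in 7, Ppard in 8 and Ppargc1a in 12. Ppara gained a call in 3. No regulator was called higher in any of the 21. With 2 against 2 Xist-positive hearts edgeR called 0 genes lower and 0 higher, and 0 regulators, though 3451 genes and 6 regulators had an unadjusted p under 0.05 (no other tool was run on these hearts). Among Y-positive hearts 1730 genes were higher and 3 regulators lower, and with control 3 and YY1 KO 1 left out, an alternative added after the data were seen, 1940 genes were higher. Leaving out 1 library at a time gave 4 to 8 regulators lower, with 4 without YY1 KO 1 or without YY1 KO 3, beside 7 with all hearts. Over all genes, 1863 of 13613 tested were lower without YY1 KO 1 and 1668 of 13649 without YY1 KO 3. With all hearts 2337 of 13506 were lower.

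The sign turned for Esrra with library size alone (0.0278) and among Y-positive hearts (0.134), with a range of -0.118 to 0.0685 over libraries left out. It turned for Esrrb among Y-positive hearts (0.124), with a range of -0.247 to 0.00308 over libraries left out. The cause was not tested. Ppargc1a lost its call with limma-voom (adjusted p = 0.0542), with no filter on low counts (0.0555 in edgeR) and with a term for Xist class (0.0623 in edgeR). Each list had 0 calls in the Xist-positive hearts. Among other moves of list counts by over 1.5 times, DESeq2 called 8 other nuclear receptors lower and 2 genes of mitochondrial transcription lower, and with control 3 and YY1 KO 1 left out 1 other nuclear receptor was higher.

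Deviations of same-numbered hearts correlated at -0.46, 0.34, -0.06 and 0.27, and those of differently numbered hearts at -0.42 to 0.48. With spreads this alike, the correlations gave no sign of pairing by mouse number and cannot exclude it. With the replicate block 1816 genes were lower and 2210 higher (2337 and 2911 without it), 6 regulators were lower, Ppargc1a had a log2 fold change of -0.81 (edgeR adjusted p = 0.0781), and 11 ERR and PGC-1 targets were lower. Each regulator had at least 194 reads per library, and how depth bears on the calls was not tested. Fits on fewer hearts changed the calls as given above. They also changed which hearts were compared, so the number of hearts alone was not tested.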

Other observations

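Reads assigned to Esr1, named after its values were seen, came to 3691, 3480, 1565 and 2448 CPM in controls 1 to 4 and to 27.1, 2.85, 145 and 941 CPM in YY1 KO hearts 1 to 4. The groups did not overlap, and the YY1 KO hearts differed 330-fold among themselves. The log2 fold change of -3.32 ± 1.31 did not pass in edgeR (adjusted p = 0.0725), while it passed in DESeq2 (0.0284) and in limma-voom (0.0420), and in edgeR without YY1 KO 4 (-5.58, adjusted p = 0.00900). Whether these reads come from the MerCreMer transgene or from the gene itself was not tested.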
